A study of Mus musculus with 12 samples.

Results

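The receptors for retinoic acid, their retinoid X partners and the corepressor Nrip1 were described across femoral head cartilage explants that were left untreated or treated with IL-1α or retinoic acid. The members were every probe on the array whose gene symbol was Rara, Rarb, Rarg, Rxra, Rxrb, Rxrg or Nrip1. This gave 10 probes for 7 genes, of 46632 probes for 34509 symbols on the array. A probe was kept for testing when it was detected, at a detection p under 0.05, on at least 4 of the 12 arrays. By this filter 6 member probes for 4 genes were kept, namely 1 each for Rarb, Rarg and Rxra and 3 for Rxrb. The other 4, for Rara, Rxrg, Nrip1 and a further one for Rarb, were not tested.

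RNA was measured on 12 Illumina bead arrays, 4 per treatment, of which 2 lay in each of 2 batches. All mice, those of the untreated group included, were TS-4/5∆cat animals, in which the catalytic domains of both ADAMTS-4 and ADAMTS-5 have been deleted, and were 21 days old. Culture lasted 3 days, and the medium held no agent, IL-1α at 10 ng/mL or retinoic acid at 10 µM. Batch 1 held the Donut line and batch 2 the Gertrude line, so line and batch cannot be told apart. The labels describe 4 hips to a well, 24 h in 10% fetal bovine serum before treatment and treatment in triplicate, while serum-free medium is given in the methods of the paper. The labels do not tie arrays to mice, and the methods of the paper give fewer mice per treatment than the 4 arrays used here, so some arrays may share a mouse. The p-values therefore measure the spread between arrays, part of which may be technical, and may be too small.

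Retinoic acid enters the nucleus and binds the retinoic acid receptors, RARα, RARβ and RARγ, encoded by Rara, Rarb and Rarg. Each works as a dimer with a retinoid X receptor, encoded by Rxra, Rxrb or Rxrg, on DNA elements made of repeated hexamers. Without ligand the dimer holds corepressors, and with ligand it exchanges them for coactivators, while Nrip1 encodes RIP140, a corepressor that binds receptors carrying ligand. In cartilage, retinoic acid is known to stop the synthesis of matrix and to start its breakdown, and RARγ is the receptor usually described as prominent in growing cartilage. Rarb is a textbook target of retinoic acid.

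The cultures carried the markers of cartilage. Of 9 chondrocyte marker genes 8 were kept, all except Matn3, and their summed level was between 62552 and 73264 on the normalized linear scale in untreated explants, 35341 to 46751 with IL-1α and 10183 to 15387 with retinoic acid. All 8 fell with retinoic acid, by a median of 2.57 on the log2 scale, and 6 of the 8 fell with IL-1α. Of all probes tested, 17.1% fell with retinoic acid and 14.1% with IL-1α. The 4 kept macrophage and leukocyte markers summed to between 1539 and 2792 untreated, 3751 to 6592 with IL-1α and 2340 to 4510 with retinoic acid. They did not move together with IL-1α, where Cd14 rose by 2.73 and Cd68 by 0.97. Emr1, detected on 2 of 4 arrays in each group, fell by 0.78 with IL-1α, and Csf1r was not called. With retinoic acid 3 of the 4 rose, where 18.2% of all probes tested did, and Emr1 was not called. Csf1r, among those that rose, was detected on 1 of 4 untreated and 2 of 4 retinoic acid arrays, close to the limit of detection. Ptprc, which marks all leukocytes, was undetected on every array. In tissue of mixed cells, fewer cells of a type and less RNA per cell cannot be told apart. Between 13786 and 14965 probes were detected per array in batch 1 and between 16732 and 19485 in batch 2. Arrays of the same treatment and batch correlated at 0.983 to 0.995, those of the same treatment in different batches at 0.868 to 0.902, and those of different treatments in the same batch at 0.932 to 0.968.

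Of the 6 receptor probes tested, 4 differed between retinoic acid and untreated explants, where 35.4% of all 18200 probes tested did. These were higher for Rarb and for 2 of the Rxrb probes and lower for Rxra, where higher calls made up 18.2% and lower calls 17.1% of all probes. With IL-1α 2 of the 6 differed from untreated, both for Rxrb and both higher, against a background of 29.3%. Retinoic acid differed from IL-1α at 2 of the 6, with Rarb higher and Rxra lower, against 31.1%. The 3 comparisons share their arrays, and with 6 probes, 3 of them of 1 gene, nothing is read from these shares about the receptors as a group. A call with a log2 change of at least 1 was made for 1 of the 6 with retinoic acid, where 9.16% of all probes had one, for 0 with IL-1α (5.26%) and for 2 between the treatments (8.42%). The median log2 fold change over the 6 probes was 0.36, 0.40 and -0.07 in the 3 comparisons in that order, and that over all probes tested was 0.02, 0.02 and -0.03.

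**Figure D1:**
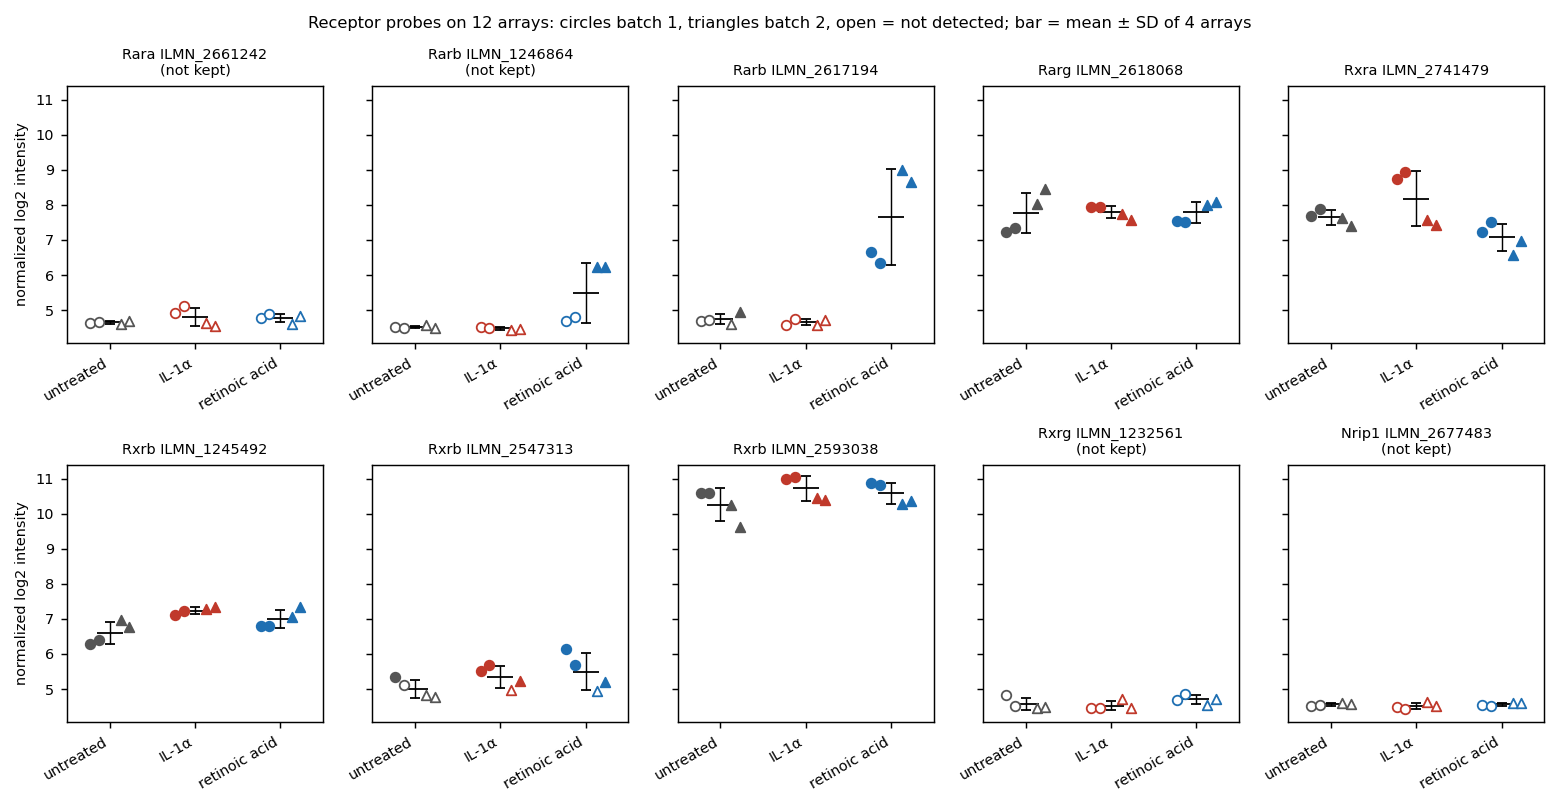
Normalized log2 intensity (y axis) of the 10 receptor and Nrip1 probes by treatment (x axis), with 1 panel per probe, circles for batch 1, triangles for batch 2, open symbols for arrays on which the probe was not detected, and a bar for the mean ± SD of 4 arrays. Rarb probe ILMN_2617194 sits between 6.33 and 9.0 with retinoic acid and at or below 4.93 on the other 8 arrays, while the probes of Rara, Rxrg and Nrip1 are open circles and triangles throughout.

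Rarb, which encodes RARβ, was the member with the largest change. The normalized log2 intensity of its kept probe, ILMN_2617194, in untreated explants was 4.67 and 4.73 in batch 1 and 4.61 and 4.93 in batch 2, and only the last of these was called detected. With IL-1α it was 4.58, 4.74, 4.58 and 4.71 in the same order, detected on 0 of 4 arrays. With retinoic acid it was 6.65 and 6.33 in batch 1 and 9.0 and 8.64 in batch 2, detected on all 4. Every retinoic acid array therefore lay above every other array, and within the retinoic acid group both arrays of batch 2 lay above both of batch 1. The deposited intensities had the same form, at 93.2 and 65.4 in batch 1 and 835 and 725 in batch 2 with retinoic acid, against 33.7 to 54.1 untreated and 38.1 to 51.7 with IL-1α.

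The fitted log2 fold change of Rarb with retinoic acid against untreated was 2.92 ± 0.39 (SE, 4 arrays per group), with a 95% interval of 2.07 to 3.77 and an adjusted p of 7.60e-05 in limma. Because Rarb met the filter through its retinoic acid arrays, this adjusted p, and the permutation p and absence of overlap below, depend in part on that selection. Without a filter the adjusted p was 0.00668 in limma. An exact two-sided permutation test of the 4 against 4 arrays gave p = 0.0286, the smallest this design allows. Any groups of 4 without overlap give this value, so it restates the absence of overlap. Groups of 4 arrays did not overlap for 1 of the 6 receptor probes, Rarb, and for 16.9% of all probes in this comparison, and for 1 and 17.7% in that of retinoic acid with IL-1α. Since untreated Rarb was detected on 1 array of 4, its level there is close to a bound: in batch 1, where it was undetected, the retinoic acid arrays were at least 2.31-fold higher. Against IL-1α the fitted difference was 3.00 (adjusted p 6.46e-05 in limma, or 0.00661 without a filter), and since Rarb was undetected on every IL-1α array this is at least a 5.29-fold difference, or at least 2.04-fold in batch 1 and 13.7-fold in batch 2. For these bounds each dimmer array was given its own signal for the probe or the weakest signal called detected on it, whichever was larger.

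For IL-1α against untreated, the fitted Rarb difference was -0.08, with an interval of -0.93 to 0.77 (adjusted p 0.901 in limma), between groups that were both at the limit of detection. No change with IL-1α could be measured at this signal.

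The other Rarb probe, ILMN_1246864, was not kept because it was detected on 2 arrays alone. These were both retinoic acid arrays of batch 2, each at 6.22, where the retinoic acid arrays of batch 1 were at 4.68 and 4.81. It lay between 4.49 and 4.57 untreated and between 4.44 and 4.52 with IL-1α, undetected on all 8. Retinoic acid was at least 2.40-fold higher than untreated in batch 2 by this probe. After the mean of each batch was removed, the values of both Rarb probes correlated at 0.954 over the 12 arrays, a description over arrays that share treatments.

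The sequence around the start of Rarb is shown because it holds the only match, among the members, to the direct repeat that RAR and RXR dimers are known to bind. The windows run from 250 bases before to 50 bases after each start in the RefSeq annotation of GRCm38.p6, and all 7 members had at least 1, for 15 windows in all. The hexamer AGGTCA, the variant AGTTCA, the variant GGGTCA and the variant GGTTCA were searched, in any combination, on both strands as direct repeats with a spacer of 5, 2 or 1 bases, called DR5, DR2 and DR1. The Rarb window lies on the minus strand at chr14:16575427-16575726, and capitals mark the DR5 match, whose first base is 53 bases before the start and whose last base is 37 before it. The Rarg window at chr15:102257473-102257772, also on the minus strand, is given beside it as a member without a match.
Rarb: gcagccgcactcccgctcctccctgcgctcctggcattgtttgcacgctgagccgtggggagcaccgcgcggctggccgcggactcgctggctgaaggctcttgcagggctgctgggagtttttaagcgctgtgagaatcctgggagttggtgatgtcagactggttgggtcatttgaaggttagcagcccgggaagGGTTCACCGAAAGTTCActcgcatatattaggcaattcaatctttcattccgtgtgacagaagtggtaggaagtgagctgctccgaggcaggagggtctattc
Rarg: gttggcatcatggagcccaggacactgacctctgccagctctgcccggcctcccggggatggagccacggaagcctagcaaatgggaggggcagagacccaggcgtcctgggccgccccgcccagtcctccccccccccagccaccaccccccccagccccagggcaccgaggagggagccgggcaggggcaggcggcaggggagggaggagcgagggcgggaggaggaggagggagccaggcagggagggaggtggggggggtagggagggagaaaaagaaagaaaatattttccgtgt

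None of the other 14 member windows held a DR5, and 0 of the 15 held a DR2 or DR1. Over all promoters, a DR5 was present in 0.0974% of 32851 windows, a DR2 in 0.268% and a DR1 in 0.222%. A match describes letters in these windows. Whether it is bound, or is a cause of any change here, was not tested, and a window without one says nothing on sites elsewhere.

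Among the listed pathway genes the DR5 letters occurred in 1 further window, that of Cyp26a1, which encodes a P450 enzyme that breaks down retinoic acid. Its window is at chr19:37697558-37697857 on the plus strand, and the match, on the opposite strand, lies between 32 and 16 bases before the start. Both matches are shown to let their letters be compared, with the hexamers and spacer all in capitals.
Rarb: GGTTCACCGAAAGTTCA
Cyp26a1: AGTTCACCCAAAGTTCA
A DR5 was found for 31 of 27025 genes, or 0.115%, and 4 of the 31 had a kept probe on the array. Of these, Rarb, Cyp26a1 and Ppbp rose with retinoic acid, with a log2 fold change of 2.20 for the chemokine gene Ppbp, while Blvrb was at 0.03 (adjusted p 0.88 in limma). Of all probes tested 18.2% rose. Rarb and Cyp26a1 met the filter through their retinoic acid arrays, so the count depends in part on that selection and links no match to a response. These genes were looked up after their values were known and carry no test.

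Rarg, which encodes RARγ, was detected on all 12 arrays with probe ILMN_2618068. Untreated explants gave log2 intensities of 7.24 and 7.35 in batch 1 and 8.02 and 8.44 in batch 2. IL-1α gave 7.94, 7.94, 7.73 and 7.58 in the same order, and retinoic acid gave 7.54, 7.53, 7.99 and 8.09. The groups overlapped in every comparison, and batch 2 was above batch 1 in the untreated and retinoic acid groups and below it in the IL-1α group. The fitted log2 differences were 0.03 for retinoic acid against untreated (interval -0.43 to 0.48, adjusted p 0.939 in limma), 0.03 for IL-1α against untreated (-0.42 to 0.49, adjusted p 0.922) and -0.01 for retinoic acid against IL-1α (-0.46 to 0.45, adjusted p 0.983). Changes of more than about 0.49 in either direction lay outside all of these intervals.

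The pooled IL-1α value of Rarg was the mean of opposite differences in the 2 batches. Against untreated it was higher by 0.65 in batch 1 and fell by 0.58 in batch 2, and the difference of the effect between batches was -1.22 ± 0.22 (SE, adjusted p 0.00702 in limma). Effects that differed between batches were called for 4.82% of all probes in this comparison. For retinoic acid against IL-1α the Rarg difference was -0.41 in batch 1 and 0.39 in batch 2, which differed by 0.80 (adjusted p 0.0359 in limma, background 8.76%). This second call was kept in 4 of 12 fits that left out 1 array, and was lost without any 1 of the 8 arrays of IL-1α or retinoic acid. For retinoic acid against untreated the batch values were 0.24 and -0.19, and their difference of -0.43 was not called (adjusted p 0.404 in limma).

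Rxra, which encodes RXRα, was detected on all 12 arrays with probe ILMN_2741479. Its log2 intensity in untreated explants was 7.67 and 7.89 in batch 1 and 7.61 and 7.39 in batch 2. With IL-1α it was 8.75 and 8.95 in batch 1 and 7.56 and 7.44 in batch 2, and with retinoic acid it was 7.24, 7.50, 6.58 and 6.97. Both IL-1α arrays of batch 1 stood above all other arrays, those of batch 2 lay within the untreated range, and both retinoic acid arrays of batch 2 were the lowest of all.

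Rxra fell with retinoic acid against untreated by 0.57 on the log2 scale (SE 0.19, interval -0.99 to -0.15, adjusted p 0.0372 in limma), with a difference of means of -0.41 in batch 1 and -0.72 in batch 2. The groups of 4 overlapped slightly, and the exact permutation test, which takes no account of batch here or elsewhere, gave p = 0.0571. The call was near its threshold and was lost in 5 of the 12 fits that left out 1 array, namely either retinoic acid array of batch 1, either untreated array of batch 2 or the first retinoic acid array of batch 2, with adjusted p up to 0.144 in limma. Median scaling in place of quantile normalization moved the difference to -0.41 (adjusted p 0.319 in limma), an offset of 50 gave an adjusted p of 0.0564 and no filter one of 0.159. Median scaling also moved the median of all probes from 0.02 to 0.14. Under that scaling 65.6% of the probes called for retinoic acid against untreated were higher, against 51.6% as reported.

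Retinoic acid against IL-1α gave the larger Rxra difference, -1.10 ± 0.19 (SE), with an interval of -1.52 to -0.68 and an adjusted p of 7.35e-04 in limma. It was lower in both batches, with a difference of means of -1.48 in batch 1 and -0.73 in batch 2, and remained called in all 12 fits that left out 1 array. The exact permutation test gave p = 0.0571. Median scaling moved the median of all probes from -0.03 to 0.06 and the share of higher calls in this comparison from 49.0% to 65.6%.

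For IL-1α against untreated, the Rxra difference was 0.53 and did not pass (interval 0.11 to 0.96, adjusted p 0.0556 in limma). Without the replicate block, with batch kept, the same difference passed at an adjusted p of 0.0386 in limma. The batches differed, with 1.07 in batch 1 and 0.00 in batch 2, and the difference between them was -1.07 (adjusted p 0.0222 in limma). That call was kept in 7 of the 12 fits that left out 1 array, and was lost without the first untreated array of either batch, either IL-1α array of batch 1 or the second IL-1α array of batch 2, at adjusted p up to 0.109 in limma.

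Rxrb, which encodes RXRβ, had 3 probes, all kept. Levels of different probes cannot be compared, so each is given by its own differences. Probe ILMN_1245492 was detected on all arrays, with log2 intensities of 6.27, 6.41, 6.96 and 6.78 untreated, 7.10, 7.23, 7.28 and 7.35 with IL-1α, and 6.80, 6.80, 7.06 and 7.35 with retinoic acid, batch 1 first. Every IL-1α array lay above every untreated array, as was the case for 13.5% of all probes in either direction, while the retinoic acid arrays overlapped both other groups.

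By this probe Rxrb rose with IL-1α by 0.63 ± 0.13 (SE, interval 0.36 to 0.90, adjusted p 0.00238 in limma, exact permutation p = 0.0286), with 0.82 in batch 1 and 0.45 in batch 2. It rose with retinoic acid by 0.40 ± 0.13 (SE, interval 0.13 to 0.67, adjusted p 0.0254 in limma), with 0.46 in batch 1 and 0.33 in batch 2. The groups of 4 overlapped and the exact permutation p was 0.114, but within batch 1 and within batch 2 both retinoic acid arrays lay above both untreated arrays. The IL-1α call held in all 12 fits that left out 1 array. The retinoic acid call held in 7 of 12 and was lost without either untreated array of batch 1, the first retinoic acid array of batch 1 or the second untreated or retinoic acid array of batch 2, with adjusted p up to 0.101 in limma, and also under median scaling (0.51, adjusted p 0.0606). Retinoic acid against IL-1α was -0.24 (interval -0.51 to 0.03, adjusted p 0.182).

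Probe ILMN_2593038 was also detected on all arrays. Its log2 intensities were 10.59, 10.58, 10.26 and 9.61 untreated, 11.00, 11.04, 10.46 and 10.39 with IL-1α, and 10.86, 10.81, 10.29 and 10.36 with retinoic acid. Both treatments were above untreated within each batch, and the second untreated array of batch 2 was the lowest of the 12. This Rxrb probe rose with IL-1α by 0.46 ± 0.13 (SE, interval 0.18 to 0.74, adjusted p 0.0170 in limma), with 0.43 in batch 1 and 0.49 in batch 2, and the call was lost at adjusted p of 0.0502 to 0.0617 without the second IL-1α array of either batch or the second untreated array of batch 2. With retinoic acid it was at 0.32 (interval 0.04 to 0.60, adjusted p 0.0700), which did not pass, and retinoic acid against IL-1α was -0.14 (adjusted p 0.456).

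The remaining Rxrb probe, ILMN_2547313, was detected on 7 of 12 arrays, 1 of them untreated. It gave 5.33, 5.10, 4.82 and 4.77 untreated, 5.50, 5.69, 4.97 and 5.24 with IL-1α, and 6.13, 5.69, 4.95 and 5.19 with retinoic acid. The first retinoic acid array of batch 1 was the highest, and the groups overlapped. The difference with retinoic acid was 0.48 ± 0.14 (SE, adjusted p 0.0165 in limma), and it was lost at 0.0808 without that array and at 0.0653 without the second untreated array of batch 1. Detection on 3 of 4 arrays with each treatment carried this probe past the filter. The retinoic acid call therefore depends in part on that selection. The untreated level lay close to the limit of detection, so 0.48 is not the size of a response. With IL-1α the difference was 0.34 (interval 0.04 to 0.65, adjusted p 0.0838 in limma), which did not pass.

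All 3 Rxrb probes thus had positive differences from untreated with both treatments, in each batch, of which 2 of 3 passed with each treatment. For retinoic acid 1 of the 2 was ILMN_2547313, whose untreated level was close to the limit of detection. Only ILMN_1245492 passed with both. Their batch-centred values correlated at 0.823 for ILMN_1245492 with ILMN_2593038, 0.610 for ILMN_1245492 with ILMN_2547313 and 0.528 for the remaining pair, over 12 arrays that share treatments. No effect on Rxrb was called as different between batches in any of the 3 comparisons.

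**Figure D2:**
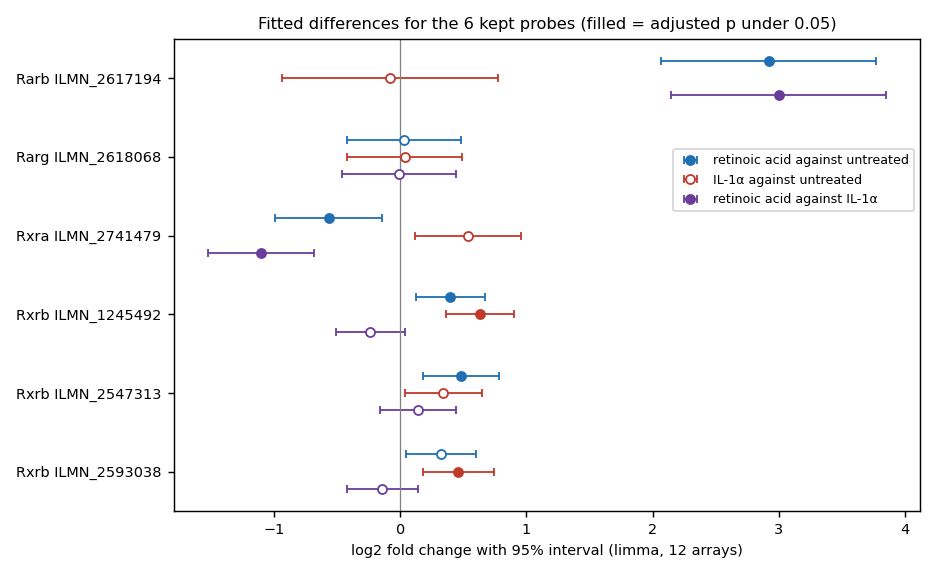
Fitted log2 fold changes (x axis) with 95% intervals from limma for the 6 kept receptor probes (y axis), for retinoic acid against untreated in blue, IL-1α against untreated in red and retinoic acid against IL-1α in purple, with filled points for an adjusted p under 0.05. Rarb alone lies beyond 2, Rarg is close to 0 in all 3 comparisons, and Rxra lies below 0 for both comparisons of retinoic acid.

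Rara, which encodes RARα, was undetected on all 12 arrays with its 1 probe, ILMN_2661242. Its log2 intensity was 4.62 to 4.70 untreated, 4.56 to 5.11 with IL-1α and 4.60 to 4.88 with retinoic acid, where the weakest signals called detected were 4.86 to 5.48. Rxrg, which encodes RXRγ, was undetected on all arrays as well, at 4.45 to 4.85 over the 3 groups. Nrip1 was undetected at 4.43 to 4.63. No fold change is given for these 3 genes, and a probe not above background does not show that the transcript was absent. Their deposited intensities were 32.3 to 71.9 for Rara, 28.4 to 64.3 for Rxrg and 25.7 to 54.6 for Nrip1, where the median over all probes of an array was 34.3 to 63.3.

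Rarb with retinoic acid differed between the batches. The fitted Rarb difference from untreated was 1.79 in batch 1 and 4.05 in batch 2, which differed by 2.26 ± 0.24 (SE, adjusted p 1.43e-04 in limma), and 2.86% of all probes differed between batches in this comparison. Against IL-1α the values were 1.83 and 4.17, a difference of 2.34 (adjusted p 4.55e-05). Both calls held in all 12 fits that left out 1 array, between 2.08 and 2.45 for the first. Because the untreated and IL-1α arrays were at the limit of detection, these numbers are not sizes of the response. The retinoic acid arrays themselves, at 6.49 and 8.82 as means of batch 1 and batch 2, were detected in both batches on ILMN_2617194, whereas ILMN_1246864 was detected in batch 2 and undetected in batch 1.

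Beside this, every kept receptor probe differed in level between the batches, as did 76.3% of all probes. For Rarb the pooled difference of 0.80 came from the retinoic acid arrays, since batch 1 and batch 2 had means of 4.70 and 4.77 untreated and 4.66 and 4.65 with IL-1α, and it repeats the batch difference above. Batch 2 was higher for Rarg (0.39) and Rxrb probe ILMN_1245492 (0.36), and lower for Rxra (-0.74) and the other Rxrb probes (-0.59 each), on the log2 scale. The Rxrb probes therefore disagreed in the sign of the batch difference while agreeing in that of the treatment differences. The summed chondrocyte markers with retinoic acid were 10183 to 10539 in batch 1 and 14998 to 15387 in batch 2, and the macrophage and leukocyte markers 4438 to 4510 and 2340 to 3095. Those of neutrophils were 5368 to 5384 and 13290 to 14196, and those of erythroid cells 18889 to 20098 and 29747 to 31871. The fibroblast and synovium markers were 10610 to 10677 and 11293 to 13039, the osteoblast markers 2218 to 2308 and 1900 to 2086, and the endothelial markers 1250 to 1280 and 1076 to 1178. The chondrocyte, neutrophil, erythroid and fibroblast sums were thus higher in batch 2, as Rarb was. Those of macrophages and leukocytes, osteoblasts and endothelium were lower. The part of these in the receptor values was not tested.

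**Figure D3:**
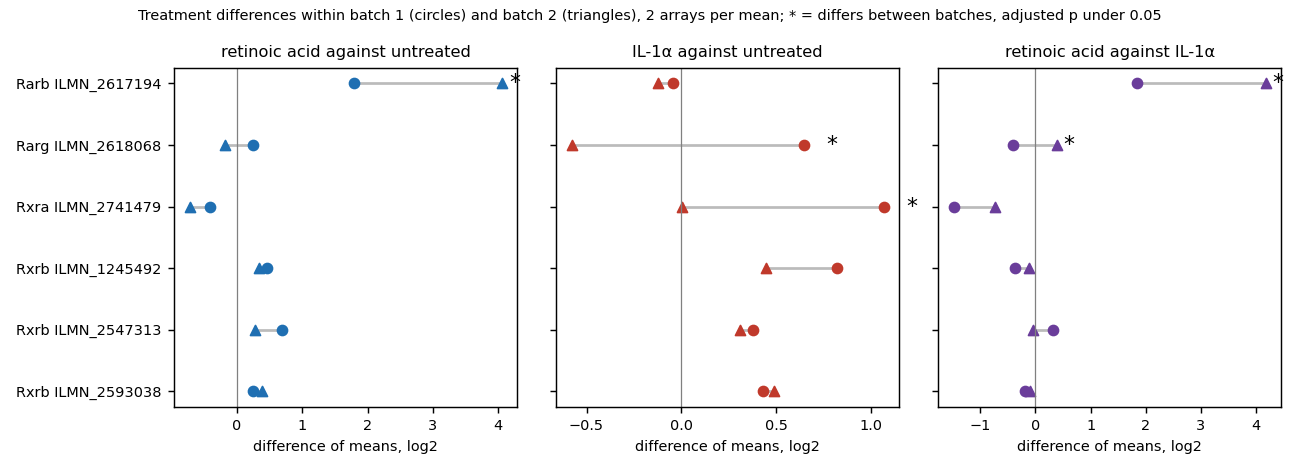
Difference of means on the log2 scale (x axis, 2 arrays per mean) for each kept receptor probe (y axis) within batch 1 (circles) and batch 2 (triangles), with 1 panel per comparison and a star where the effect differed between batches at an adjusted p under 0.05. Rarb with retinoic acid is plotted at 1.79 in batch 1 and 4.05 in batch 2, taken against untreated arrays at the limit of detection and so not sizes of a response, and Rarg lay on opposite sides of 0 for IL-1α against untreated.

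The genes whose batch-centred values over the 12 arrays were most like those of each called receptor probe were named by Pearson correlation, as a description over arrays that share treatments. For Rarb these were 8430403M15Rik (0.997), a synonym of Adamts9 in RefSeq, which encodes a metalloproteinase that cleaves proteoglycans, 9930013L23Rik (0.995), a synonym of the hyaluronan-degradation gene Cemip, and the signalling ligand gene Wnt2b (0.993). Their log2 fold changes with retinoic acid against untreated were 2.28 for 8430403M15Rik, 2.47 for 9930013L23Rik and 1.37 for Wnt2b. For Rxra they were the transcription factor gene Klf5 (0.978), Rsc1a1 (0.971) and Tbrg1 (0.967). For Rxrb they differed by probe, with Rpo1-3 (0.982), a synonym of the RNA polymerase subunit gene Polr1d, leading for ILMN_1245492, Bdh1 (0.929) for ILMN_2547313 and the histone gene H2afj (0.977) for ILMN_2593038.

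The other genes of the pathway were taken by role, each from its kept probe of highest mean. Of 10 retinoic acid response genes 9 were on the array and 8 were kept, and 6 of the 8 rose with retinoic acid and 0 fell, also without adjustment for multiple tests in limma, where 18.2% of all probes rose. Cyp26a1, Stra6 and Dhrs3 met the filter through their retinoic acid arrays, so the count and the median of this list depend in part on that selection and support nothing by themselves. Their median log2 fold change was 1.59, against 0.02 over all probes. With IL-1α 2 of the 8 rose and 0 fell, with a median of 0.08, where 15.2% of all probes rose and 14.1% fell. Between the treatments the median was 1.55 toward retinoic acid, with 5 of 8 higher and 0 lower. Of all probes, 15.2% were higher and 15.8% lower between the treatments. Of these genes, Cyp26a1 had a log2 intensity of 9.39 ± 0.34 (SD, n = 4) with retinoic acid and was undetected on every untreated and IL-1α array, at least 19.2-fold and 17.5-fold higher.

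Cyp26b1, the other retinoic acid hydroxylase measured, rose by 3.94 with retinoic acid, from 9.81 ± 0.54 to 13.75 ± 0.53 (SD, n = 4), with values of 3.94 in each batch, and by 0.59 with IL-1α (adjusted p 0.00660 in limma). The highest value on any array was 14.24, so its level with retinoic acid was close to the top of the scale. Dhrs3, which encodes a reductase of retinaldehyde, rose by 1.75 with retinoic acid. Stra6, for the retinol uptake receptor, was at least 2.15-fold higher than untreated and undetected without retinoic acid. Tgm2, for transglutaminase 2, rose with both, by 1.46 with retinoic acid and 1.17 with IL-1α. Hoxb1, which encodes a homeobox factor, was at 0.18 with retinoic acid and did not pass. Within batch 1 and batch 2 the retinoic acid differences were 4.48 and 5.08 for Cyp26a1, 2.00 and 1.49 for Dhrs3 and 1.29 and 2.14 for Stra6. The untreated arrays of Cyp26a1 and Stra6 were all undetected and 1 of 4 was detected for Dhrs3, so these are not sizes of a response, and no comparison with Rarb was tested.

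Of 23 co-regulators of the receptors 21 were on the array and 16 were kept, among which 2 rose and 0 fell with retinoic acid, or 3 and 1 without adjustment, where 35.4% of all probes were called. The coactivator Ncoa3 (0.86) was among those that rose. With IL-1α, where 29.3% of all probes were called, 4 rose, among them the corepressors Ncor1 (0.60) and Sin3a (0.54) and the coactivator Ncoa3 (0.56), and 3 fell, Tbl1x by 0.54, Crebbp by 0.51 and Gps2 by 0.38. Sin3a and Tbl1x each had 2 kept probes, and with IL-1α the other probe had the opposite sign. Crebbp was detected on 2 of 4 arrays in each group, so its value lay close to the limit of detection. The medians of the list were 0.11 with retinoic acid and 0.03 with IL-1α. The calls for co-regulators went from 2 to 1 with retinoic acid and from 7 to 3 with IL-1α under median scaling. That scaling called 28.7% and 17.1% of all probes.

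Of 13 other nuclear receptors that pair with RXR, all on the array, 8 were kept, and with retinoic acid 3 rose and 3 fell, where 18.2% of all probes rose and 17.1% fell, with a median of -0.12. Pparg, for the fatty-acid receptor PPARγ, rose by 1.75 with retinoic acid and fell by 0.88 with IL-1α, a difference of 2.63 between the treatments (adjusted p 6.86e-09 in limma). The oxysterol receptor gene Nr1h2 rose by 0.44 with retinoic acid, and Nr1h4, kept through the 4 retinoic acid arrays and detected on no other, was at least 1.17-fold higher than untreated. The thyroid hormone receptor gene Thra fell by 0.73 with retinoic acid, the vitamin D receptor gene Vdr by 0.55 and Nr4a2 by 0.38. With IL-1α Vdr also fell by 0.60, while Nr4a2 rose by 0.44 and Nr1h2 by 0.43. The calls for these partners went from 6 to 3 with retinoic acid, and from 4 to 2 with IL-1α, under median scaling, where 28.7% and 17.1% of all probes were called. As reported, the shares of all probes were 35.4% and 29.3%.

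Of 11 orphan receptors 10 were on the array and 6 were kept. With retinoic acid 1 rose, Nr2f2, for COUP-TFII, by 0.76, 1 fell and the other 4 did not pass. Of all probes, 18.2% rose and 17.1% fell in this comparison. Nr2f2 was detected on 4 of 4 retinoic acid arrays, 2 of 4 untreated and 1 of 4 with IL-1α, so its untreated level was close to the limit of detection. Of the 3 genes that carry retinoic acid to the nucleus, Crabp1 and Crabp2 were undetected on all arrays, and Fabp5 was at -0.03 with retinoic acid and 0.07 with IL-1α, neither of which passed. Fabp5 was detected on 2 of 4 untreated, 2 of 4 IL-1α and 1 of 4 retinoic acid arrays, so no change could be measured at this signal.

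**Figure D4:**
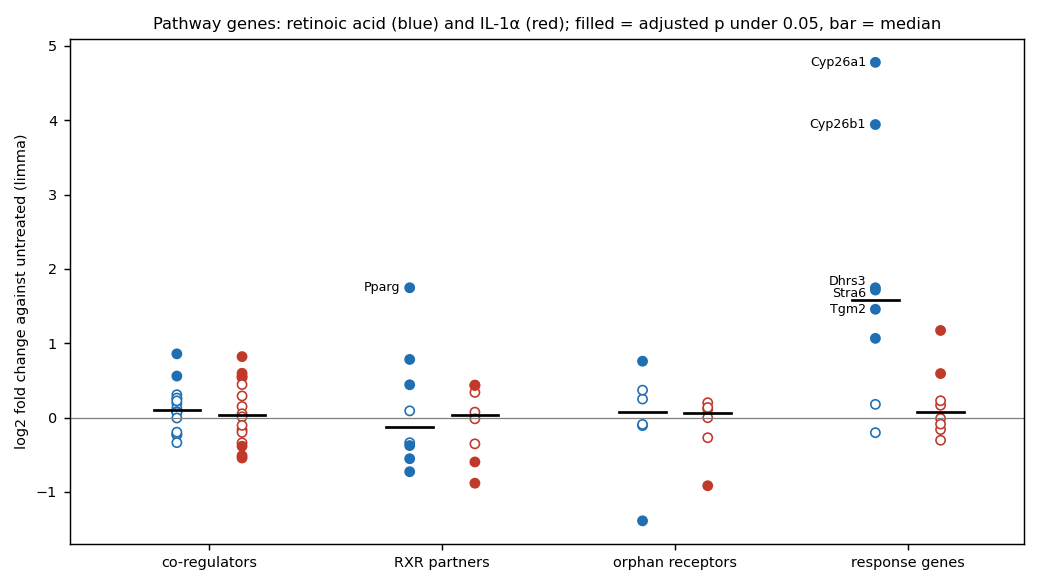
Log2 fold changes against untreated (y axis, limma) of the kept pathway genes in 4 lists (x axis), with retinoic acid in blue, IL-1α in red, filled points for an adjusted p under 0.05 and a bar for the median of each list. The median of the response genes was 1.59 with retinoic acid and 0.08 with IL-1α, and those of the other lists lay between -0.12 and 0.11.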

How the data were processed

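The authors deposited probe intensities of 12 bead arrays on a linear scale, with no background subtraction or normalization. Beside each intensity the deposited table has a detection score that rises with it, and the detection p was taken as 1 minus that score. Bead summarisation software is not given in the sources used here. The submitters' processing notes name limma, with a version not given. Every column belonged to 1 array, and 0 were left without a sample.

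The processing here used limma 3.58.1 under R 4.3.3. The neqc function estimated background from the detection p, applied quantile normalization and added an offset of 16 before log2. The filter required detection at p under 0.05 on 4 or more arrays, which left 18200 of 46632. The model (lmFit, eBayes) held treatment and a blocking factor whose 4 levels combined batch with replicate, after the paper's methods. A model with treatment by batch, without the replicate factor, tested differences between batches. All adjusted p-values are from limma, with Benjamini-Hochberg adjustment over all kept probes at 0.05. Permutation tests were exact, two-sided and of 4 against 4 arrays. The number of arrays limits the precision. The functions were tested on simulated data. The probe filter favours genes that are bright under any 1 treatment, since 4 arrays suffice, so Rarb was kept through its retinoic acid arrays.

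The members and gene lists were chosen with earlier results of these data known. Pathway genes were named when called with an absolute log2 fold change of at least 1 in any comparison, and the called members of lists with small counts were named after their values were seen. Some of these genes are not reported here. Of the 22 symbols of members and genes like them, those listed in RefSeq as synonyms were matched to current symbols. Promoters came from RefSeq tables of GRCm38.p6. Probe sequences and proteins were not used here. The alternatives tried were no background correction, median scaling, normalization within batches, an offset of 50, filters at 2 or 12 arrays, at a detection p of 0.01 or none, other blocks, a required log2 change of 1 and leaving out each array.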

Additional observations from a re-analysis of the deposited data

Results flagged for a closer look

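The effect of a treatment differed between batch 1 and batch 2, by a test of the difference itself, for 5 receptor values. For Rarb the fitted retinoic acid difference was apart by 2.26 against untreated and by 2.34 against IL-1α, as batch 2 minus batch 1 on the log2 scale, but Rarb was detected on 1 of 4 untreated and 0 of 4 IL-1α arrays, so these are not sizes of a response. For Rarg the IL-1α effect differed by -1.22 and that of retinoic acid against IL-1α by 0.80, and for Rxra the IL-1α effect differed by -1.07. All 5 are from limma with adjusted p-values of 0.0359 or less. Batch and mouse line are the same division of the arrays and cannot be told apart.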

How the results depend on the processing

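Of 402 recomputed values for the 18 log2 fold changes of the kept receptor probes, 347 kept their direction and side of the threshold, 25 lost and 14 gained a call, and 16 changed sign. None of the values that changed sign had been called. Median scaling turned Rarg for retinoic acid against IL-1α to 0.082. With 1 array left out, Rarg changed sign at the low end of -0.13 to 0.24 for retinoic acid against untreated and of -0.14 to 0.27 for IL-1α against untreated, and at the high end of -0.24 to 0.17 for retinoic acid against IL-1α, as did Rarb at the high end of -0.34 to 0.15 for IL-1α against untreated. The causes were not tested.

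For retinoic acid against untreated the 4 probes called became 2 with detection required on all 12 arrays or at a detection p of 0.01, which leave 4 receptor probes without Rarb, and 1 without block and batch or with a log2 change of at least 1. Of all probes, 35.4% were called as reported, and 43.3% and 42.1% under those filters. The share was 12.2% without block and batch and 9.16% with that log2 change. Leaving out 1 array gave 1 to 4, with 1 without the first retinoic acid array of batch 1 and 2 without the second untreated array of either batch. Those fits called 29.8%, 28.9% (batch 1) and 30.8% (batch 2) of all probes. For IL-1α against untreated the 2 called became 0 in limma without block and batch, where 1 had an unadjusted p under 0.05, and 0 with a log2 change of at least 1, where 0 had both such a change and an unadjusted p under 0.05. Of all probes, 7.29% and 5.26% were called in these settings, against 29.3% as reported. Leaving out 1 array gave 1 to 4, with 4 without the first untreated array of batch 2 and 1 without its second or without the second IL-1α array of batch 1. In that order, these fits called 30.7%, 23.9% and 20.8% of all probes. For retinoic acid against IL-1α the 2 called became 1 under both stricter filters and without block and batch, and stayed at 2 with each array left out. The fits with an array left out called 25.4% to 32.5% of all probes. The filters called 37.9% and 37.7% of all probes and the fit without block and batch 10.9%, against 31.1% as reported. Without block and batch every call of Rxra and Rxrb was lost, at adjusted p of 0.0663 to 0.419 in limma, and those of Rarb were kept. Without a filter, effects called as different between batches went from 1 to 2 for retinoic acid and from 2 to 1 for IL-1α against untreated. The shares of all probes went from 2.86% to 1.31% and from 4.82% to 1.43%. Leaving out 1 array gave 1 in all fits, 1 to 2, and 1 to 3 for retinoic acid against untreated, IL-1α against untreated and retinoic acid against IL-1α. Over all probes the shares in these fits were 1.14% to 3.45%, 1.33% to 9.58% and 3.86% to 11.9%.

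Arrays with the same replicate number deviated from their group means with correlations of 0.00 to 0.06 in batch 1 and -0.11 to 0.39 in batch 2. With 2 arrays per group these values do not settle whether the numbers pair arrays. Without the replicate block, with batch kept, the calls were 4, 3 and 2, where 37.1%, 31.3% and 32.6% of all probes were called. The added call was Rxra with IL-1α (0.53, adjusted p 0.0386 in limma). Signal over background limits Rarb in untreated and IL-1α explants, Rxrb probe ILMN_2547313 in untreated explants and Rara, Rxrg and Nrip1 throughout.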
